A study of Mus musculus with 16 samples.

Results

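The odorant receptor genes Olfr90 to Olfr137 lie together on mouse chromosome 17, next to the class I genes of the major histocompatibility complex (MHC). A gene was included where the array annotation gave it the name Olfr followed by a number from 90 to 137. This rule used no measured value, but the members were chosen with earlier results of these data known. Of the 48 numbers in that range, 43 had a probe set, and Olfr100, Olfr102, Olfr104, Olfr105 and Olfr106 were not analysed here. The 43 receptors were set among 22206 tested probe sets, which hold 1080 odorant receptor genes with a plain Olfr number, so 1037 other receptors stood beside them. All 43 were placed on chromosome 17 by the RefSeq gene table of GRCm38.p6.

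RNA came from fluorescence-sorted cells of the olfactory mucosa of S100a5-tauGFP mice on a C57BL/6 background. In this reporter line GFP marks cells that express S100a5, a calcium-binding protein gene of olfactory sensory neurons that is known to respond to odor stimulation. The 24 mice, of both sexes and 7 to 12 weeks old, were kept singly in clean-air chambers for 40 hours and received a 10-second pulse every 20 minutes once 26 hours had passed, and they were sorted in 8 pools of 3. There were 4 groups of 4 Clariom S arrays, and each pool gave a library to both sorts: isoamyl acetate (the odor, an ester that smells of banana) titled GFP+, isoamyl acetate titled GFP-, filtered air (the vehicle) titled GFP+ and filtered air titled GFP-. No source used here gives the number of reporter alleles, the sort gates or the sex of each pool. In all 16 samples the cell type field gives the GFP sign opposite to the title, so libraries go by their titles here, and a sort difference is the titled GFP+ level less the titled GFP- level. S100a5 itself was lower in libraries titled GFP+, with a log2 difference of -1.25 with odor (adjusted p = 0.000222) and of -1.18 with vehicle (adjusted p = 0.000442). All values are log2 signals as the authors deposited them, and a difference of 1 stands for a factor of 2. Calls are limma's at a Benjamini-Hochberg adjusted p below 0.05 over all 22206 probe sets.

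An odorant receptor is a G protein-coupled receptor on the cilia of an olfactory sensory neuron, where it binds odor molecules and starts a cyclic AMP signal through the G protein subunit Gnal, the adenylyl cyclase Adcy3 and a cyclic nucleotide-gated channel. Each mature neuron expresses 1 allele of 1 receptor gene, so the level of a receptor in a pool of cells reflects how many neurons chose it and how much RNA each carries. Fewer cells of a type and less RNA per cell cannot be told apart in these bulk samples. Receptor genes sit in clusters, and subfamilies are grouped by protein similarity under MOR numbers. The MHC-linked cluster is conserved between mouse and human, and its place beside the MHC has drawn interest because MHC type influences body odor in mice. The purpose of the design was to ask which receptors belong to the neurons that an odor activates.

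The cluster members differed strongly between the sorts, and in opposite directions. With odor, 11 of 43 were called higher and 16 lower in titled GFP+, against backgrounds of 11.03% and 9.86% of all tested probe sets. With vehicle, 11 were called higher and 14 lower, against backgrounds of 10.18% and 7.16%. Called in the same direction in both agents were 9 higher members (20.9%) and 14 lower members (32.6%), where the background over all probe sets was 9.22% and 4.17%. The other 1037 receptors had 212 (20.4%) called higher in both and 402 (38.8%) called lower in both, so the cluster's shares lay near those of receptors elsewhere, a comparison given with no test. Of the rest of the cluster, Olfr98 and Olfr115 were called higher with vehicle alone, Olfr96 and Olfr137 higher with odor alone, and Olfr123 and Olfr133 lower with odor alone. A call in a single agent does not show that the agents differ, and no member was called in the test of that difference described further on. The other 14 were called with neither agent.

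The median sort difference of the 43 members was -0.61 with odor and -0.25 with vehicle. Over all probe sets the same medians were -0.14 and -0.13, and over the other receptors -0.57 and -0.48. The member medians depended on scaling: with arrays centred on their medians they were -0.98 with odor and -0.62 with vehicle, on mature olfactory neuron genes -0.34 and -0.06, and the vehicle median was -0.43 after quantile normalization. They were -0.09 with odor and -0.13 with vehicle in pools 3 and 4 alone. Without the odor titled GFP+ library of replicate 1 the odor median was -0.38, and without the vehicle titled GFP- library of replicate 2 the vehicle median was -0.13. Array medians differ in the deposited values (they average near 6.85 in titled GFP+ and 6.48 in titled GFP-), and centring each array on its median moved the all-gene shift to -0.50 in both agents, whereas centring on mature olfactory neuron genes moved it to 0.13 with odor and 0.06 with vehicle. With arrays centred on their medians the members split into 9 higher and 26 lower with odor, in place of 11 and 16, and into 10 higher and 19 lower with vehicle. With the odor pools numbered 3 and 4 alone, 8 members were called lower. The shares of all probe sets called under these settings are not given here, so these counts describe the members alone. The 9 higher and 14 lower members called in both agents stayed called in both under every one of the 3 other array scalings, with the exception of Olfr107 under the centring on mature neuron genes.

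The sort differences of the members were close to each other in the 2 agents, which share no library. Pearson's r was 0.989 over the 43 members, as a description across probe sets of the same array, and 42 of 43 had the same sign. Over the other 1037 receptors r was 0.982, and 966 had the same sign. Counted pool by pool, 12 members were higher in titled GFP+ in 8 of 8 pools and 17 were lower in 8 of 8, where 11.86% and 15.08% of all probe sets did the same. Of the 1037 other receptors, 242 were higher and 447 lower in 8 of 8 pools, so such agreement was common among receptors. The other 14 members had pools on both sides of 0.

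**Figure D1:**
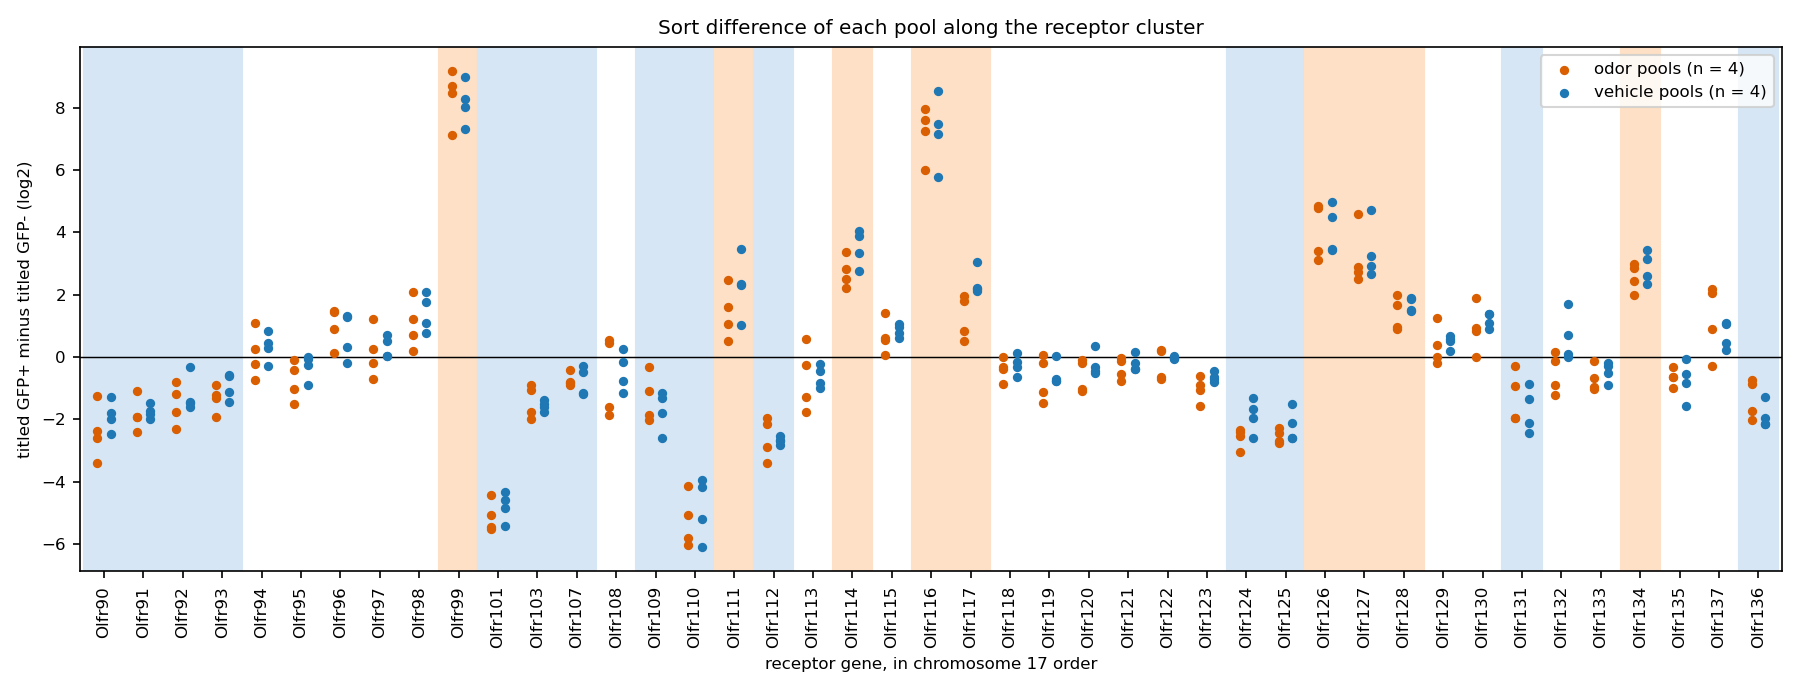
Sort difference of each pool (titled GFP+ minus titled GFP-, log2) for the 43 receptors in chromosome 17 order, with 4 odor pools and 4 vehicle pools as dots. Orange shading marks the 9 receptors called higher in both agents and blue shading the 14 called lower in both. Olfr99 and Olfr116 stand highest and Olfr110 and Olfr101 lowest.

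Olfr99, a receptor of subfamily MOR156, had the largest rise of the cluster. Its log2 signal was 14.44, 14.68, 14.23 and 13.97 in odor titled GFP+ libraries, against 5.25, 6.21, 5.54 and 6.83 in odor titled GFP-. It was 14.56, 15.12, 13.83 and 14.56 in vehicle titled GFP+, against 6.53, 6.15, 6.52 and 6.27 in vehicle titled GFP-. The groups were far apart in both agents, and the lowest titled GFP+ library was above the highest titled GFP- library by many times the spread within a group. The sort difference was 8.37 with odor (SE 0.30, adjusted p = 1.03e-11), a 331-fold higher signal, and 8.15 with vehicle (SE 0.30, adjusted p = 1.74e-11), a 284-fold higher signal. By the mean of both agents, 8.26, it ranked 3 from the top when placed among the other receptors and 16 among all probe sets. In the titled GFP- libraries its signal lay near the median of the negative control probe sets, which ran from 5.15 to 5.67 over the 16 arrays, so the fold there depends on how background was treated. The median sort difference of the 5 MOR156 members was 0.15 with odor and 0.32 with vehicle, since Olfr97, Olfr98, Olfr107 and Olfr108 did not share the size of the Olfr99 difference.

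Olfr98, the chromosomal neighbour of Olfr99 in the same subfamily, averaged 9.68 ± 0.60 (SD, n = 4) in odor titled GFP+ and 8.62 ± 0.65 in odor titled GFP-, and its sort difference of 1.05 missed the threshold (adjusted p = 0.0641 by limma, 0.0247 with the pool as a block). It averaged 10.27 ± 0.29 in vehicle titled GFP+ against 8.84 ± 0.83 in vehicle titled GFP-, and the difference of 1.43 was called (adjusted p = 0.0154 by limma). Olfr108, also MOR156, was above the median negative control in 1 of 16 libraries and has no level to compare. The windows around the annotated gene starts of Olfr99 and Olfr98 are shown because they are much alike in sequence while the sort differences are unlike in size, and that of Olfr108 because it holds the same motif letters. Each holds 300 bases, 250 before and 50 after the start that RefSeq annotates in GRCm38.p6, and capitals mark the Ebf-type motif (TCCC, any 2 bases, then GGGA), named for the Ebf (Olf1/EBF) transcription factors of olfactory neurons. The windows are chr17:37280369-37280668 (minus strand) for Olfr99, chr17:37263613-37263912 (minus strand) for Olfr98 and chr17:37445230-37445529 (plus strand) for Olfr108, each printed 5′ to 3′ on the strand of its gene.
Olfr99: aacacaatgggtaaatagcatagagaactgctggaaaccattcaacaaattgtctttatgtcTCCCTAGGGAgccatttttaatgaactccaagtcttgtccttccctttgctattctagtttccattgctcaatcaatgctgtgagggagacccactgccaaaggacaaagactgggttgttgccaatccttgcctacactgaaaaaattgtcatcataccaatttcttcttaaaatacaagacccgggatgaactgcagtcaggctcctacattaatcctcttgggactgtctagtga
Olfr98: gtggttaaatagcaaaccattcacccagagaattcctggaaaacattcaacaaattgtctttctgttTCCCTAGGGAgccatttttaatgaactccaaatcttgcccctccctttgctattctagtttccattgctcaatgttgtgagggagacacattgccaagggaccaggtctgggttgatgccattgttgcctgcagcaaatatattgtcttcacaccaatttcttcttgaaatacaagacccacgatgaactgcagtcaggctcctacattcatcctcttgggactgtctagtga
Olfr108: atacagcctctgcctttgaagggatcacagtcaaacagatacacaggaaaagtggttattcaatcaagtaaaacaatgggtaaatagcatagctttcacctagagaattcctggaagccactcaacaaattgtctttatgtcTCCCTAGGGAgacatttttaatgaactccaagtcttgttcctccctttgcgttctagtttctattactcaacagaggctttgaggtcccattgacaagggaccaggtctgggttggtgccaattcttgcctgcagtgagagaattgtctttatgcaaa
The annotated start of Olfr99 and of Olfr98 is the ATG of the coding sequence, so their windows reach upstream of the coding start and not of a mapped transcription start. In a local alignment the Olfr99 and Olfr98 windows were identical in 87.5% of 279 columns, and the Olfr99 and Olfr108 windows in 79.6% of 235 columns. The motif began at base 63 in Olfr99, 68 in Olfr98 and 143 in Olfr108, with the same 10 letters, TCCCTAGGGA, in all 3. Olfr99, with a sort difference of 8.37 with odor, and Olfr98, with 1.05, carry these letters at nearly the same distance from the ATG. Whether the motif has a part in either sort difference was not tested.

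A window was found for 34 of the 43 members. None was found for Olfr91, Olfr103, Olfr112, Olfr116, Olfr117, Olfr121, Olfr126, Olfr129 and Olfr137. In 22 of the 34 windows the annotated start is the ATG. The Ebf-type motif, searched on both strands, was present in 4 of 34 (11.8%), the fourth being Olfr96 at base 283 with the letters TCCCATGGGA. It was present in 1 of 891 windows of other receptors (0.112%) and in 297 of all 32851 windows (0.904%). The 3 members printed above are alike in sequence, so these matches are not independent of each other. The looser CCCNNGGG, which every match of the Ebf-type motif contains, was in 5 of 34 member windows (14.7%), in 2.47% of those of other receptors and in 13.7% of all. TAATTA, a homeodomain-type motif that overlaps neither, was in the windows of Olfr123, Olfr124, Olfr132 and Olfr134, which is 4 of 34 (11.8%), against 18.7% for other receptors and 5.29% of all windows. These receptors went different ways between the sorts, with sort differences with odor of -1.03, -2.59, -0.53 and 2.56 in that order, the third not called.

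Olfr116, a member of subfamily MOR218, was the other receptor with a very large rise. It read 13.89, 14.45, 14.04 and 13.96 in odor titled GFP+, against 5.94, 6.84, 8.03 and 6.71 in odor titled GFP-. With vehicle it read 14.51, 14.01, 14.29 and 14.07 in titled GFP+, against 7.02, 8.25, 7.14 and 5.53 in titled GFP-. The titled GFP- libraries scattered widely, with an SD of 1.12 in vehicle that was the highest of any member and group, while the titled GFP+ libraries were tight. The sort difference was 7.20 with odor (SE 0.45, adjusted p = 2.39e-09) and 7.23 with vehicle (SE 0.45, adjusted p = 2.60e-09).

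Olfr126, Olfr127 and Olfr128, which are MOR218 members side by side on the chromosome, were all called higher in both agents. Olfr126 read 9.70, 10.89, 10.64 and 10.0997 in odor titled GFP+, against 6.57, 6.03, 5.87 and 6.71 in odor titled GFP-, and 11.01, 10.51, 10.11 and 10.52 in vehicle titled GFP+, against 6.04, 7.07, 6.65 and 6.04 in vehicle titled GFP-. The groups did not overlap, and the sort difference was 4.04 with odor and 4.09 with vehicle (SE 0.29, adjusted p = 1.56e-08 and 1.42e-08). Olfr127 read 8.48, 8.96, 8.34 and 8.63 in odor titled GFP+, against 5.76, 6.07, 5.84 and 4.05 in odor titled GFP-, the last well under the others. Its vehicle libraries read 9.34, 8.82, 8.40 and 8.08 in titled GFP+, against 4.61, 5.57, 5.75 and 5.16 in titled GFP-. Its sort difference was 3.17 with odor and 3.39 with vehicle, and 13 of its 16 libraries were above the median negative control. Olfr128 fell at the lower end of measurement. Its mean was 6.52 in odor titled GFP+ against 5.14 in odor titled GFP-, and 6.83 in vehicle titled GFP+ against 5.15 in vehicle titled GFP-. In vehicle titled GFP- it exceeded the median negative control in none of 4 libraries, so against that floor, or its own signal where higher, the vehicle signal was at least 2.50-fold higher in titled GFP+ (adjusted p = 2.42e-05).

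Olfr114, the fifth MOR218 member called higher in both agents, read 8.23, 9.16, 8.03 and 8.79 in odor titled GFP+, against 6.01, 5.77, 5.54 and 5.95 in odor titled GFP-. Vehicle libraries read 9.50, 8.81, 8.97 and 8.92 in titled GFP+, against 5.46, 6.05, 5.62 and 5.05 in titled GFP-. The sort difference was 2.73 with odor and 3.51 with vehicle (SE 0.25, adjusted p = 2.32e-07 and 1.14e-08). Its neighbour Olfr113, of the same subfamily, was not called in either agent. Olfr113 averaged 8.89 ± 0.54 in odor titled GFP+ and 9.58 ± 0.76 in odor titled GFP- (SD, n = 4), a difference of -0.68 (95% interval -1.39 to 0.02, adjusted p = 0.163 by limma). With vehicle the difference was -0.63 (95% interval -1.33 to 0.08, adjusted p = 0.221 by limma). The intervals of these neighbours do not overlap in either agent. The windows of Olfr113, at chr17:37575372-37575671 (minus strand), and Olfr114, at chr17:37590302-37590601 (minus strand), are shown because this pair has the most alike windows of the cluster by alignment score and differs between the sorts. Both annotated starts are the ATG at base 251, and neither window holds any of the 3 motifs, so no letter is in capitals.
Olfr113: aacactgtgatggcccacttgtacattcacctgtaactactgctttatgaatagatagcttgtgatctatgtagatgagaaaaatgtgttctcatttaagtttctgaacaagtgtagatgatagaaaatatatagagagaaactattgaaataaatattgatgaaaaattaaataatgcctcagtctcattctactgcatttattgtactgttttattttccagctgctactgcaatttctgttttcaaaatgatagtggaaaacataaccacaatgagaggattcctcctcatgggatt
Olfr114: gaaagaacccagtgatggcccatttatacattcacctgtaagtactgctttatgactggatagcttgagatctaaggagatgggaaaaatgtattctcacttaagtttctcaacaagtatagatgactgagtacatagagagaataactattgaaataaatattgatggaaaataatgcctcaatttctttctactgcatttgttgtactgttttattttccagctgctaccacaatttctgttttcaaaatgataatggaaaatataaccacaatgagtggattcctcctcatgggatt
The pair was identical in 87.3% of 300 aligned columns. The sequence of the array probes was not used here, so how far probe sets of alike receptors share targets was not tested.

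The remaining MOR218 members completed a subfamily with large differences of both signs. Of its 9 members, 5 were called higher with odor and 6 with vehicle, the sixth being Olfr115 (difference 0.84, adjusted p = 0.0202 by limma). Among the other receptors 22.2% were called higher with odor and 22.9% with vehicle, and among all probe sets 11.03% and 10.18%. Whether MOR218 differs from other receptors was not tested. With odor Olfr115 differed by 0.65 (adjusted p = 0.0650, and 0.0298 with the pool as a block). Olfr112 and Olfr125 were called lower in both agents, as were 38.8% of the other receptors and 4.17% of all probe sets. Olfr112 read 9.74, 10.25, 11.13 and 10.84 in odor titled GFP+ against 13.16, 13.13, 13.11 and 12.99 in odor titled GFP-. The vehicle values were 10.25, 10.68, 10.68 and 11.05 in titled GFP+, against 12.95, 13.20, 13.50 and 13.70 in titled GFP-. The sort difference was -2.60 with odor and -2.68 with vehicle (SE 0.25, adjusted p = 5.55e-07 and 4.26e-07). Olfr125 read 7.51, 7.95, 7.95 and 8.68 in odor titled GFP+, against 10.28, 10.66, 10.38 and 10.97 in odor titled GFP-. With vehicle it read 7.88, 8.50, 9.30 and 8.32 in titled GFP+, against 10.49, 10.62, 10.80 and 10.91 in titled GFP-. No titled GFP+ library of either gene reached its titled GFP- libraries. The sort difference of Olfr125 was -2.55 with odor and -2.21 with vehicle (SE 0.27). With array medians centred, MOR218 had 5 higher and 3 lower in each agent.

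**Figure D2:**
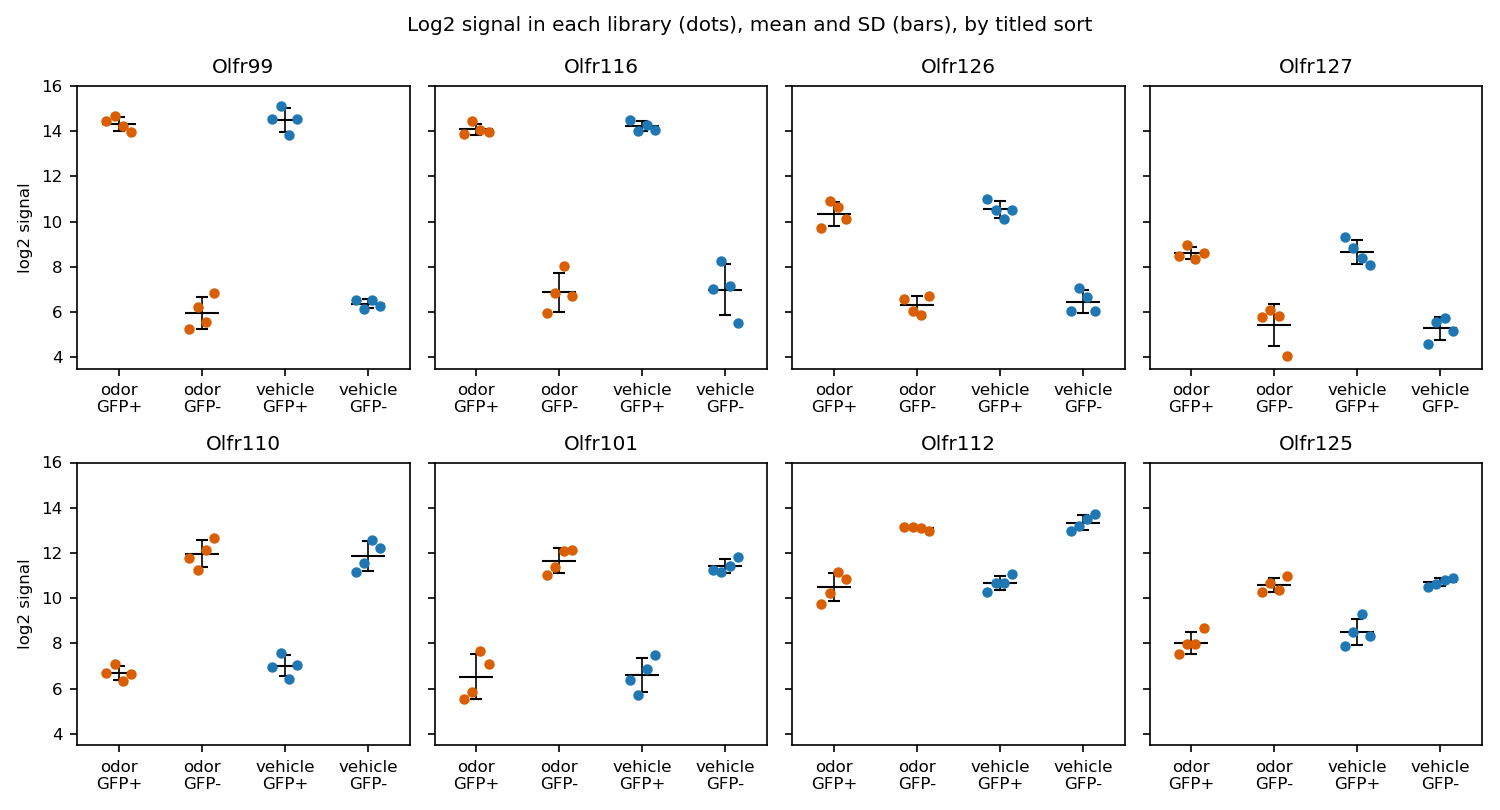
Log2 signal of the 4 receptors with the largest rises (top row) and the 4 with the largest falls (bottom row) in each of 16 libraries, with horizontal bars for the mean and error bars for the SD (n = 4). In each panel the libraries titled GFP+ and titled GFP- do not overlap within an agent, and odor and vehicle libraries of the same sort lie at like levels.

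Olfr110 and Olfr101 had the largest falls. Olfr110, the MOR249 member of the cluster, read 6.70, 7.09, 6.34 and 6.64 in odor titled GFP+, against 11.78, 11.24, 12.15 and 12.67 in odor titled GFP-. In filtered air it read 6.95, 7.59, 6.44 and 7.04 in titled GFP+, against 11.14, 11.54, 12.56 and 12.23 in titled GFP-. Every titled GFP+ library was below every titled GFP- library, and the sort difference was -5.27 with odor (SE 0.33, adjusted p = 2.49e-09) and -4.86 with vehicle (SE 0.33, adjusted p = 7.76e-09). By the mean of both agents it ranked 6 from the bottom of all probe sets. Olfr101, of subfamily MOR250, read 5.55, 5.83, 7.67 and 7.07 in odor titled GFP+, against 11.02, 11.36, 12.08 and 12.15 in odor titled GFP-. With filtered air it read 6.38, 5.71, 6.84 and 7.50 in titled GFP+, against 11.24, 11.15, 11.43 and 11.83 in titled GFP-. The titled GFP+ libraries were the more scattered, with an SD of 1.00 with odor and 0.76 with vehicle against 0.55 and 0.30 in titled GFP-, and the groups did not overlap. The sort difference was -5.12 with odor and -4.80 with vehicle (SE 0.43, adjusted p = 1.16e-07 and 2.60e-07). The other MOR250 members, Olfr103 and Olfr109, were also called lower in both agents, so the subfamily's 3 of 3 members fell. This count of 3 held under all 3 other array scalings of the same arrays. Among the other receptors 38.8% were called lower in both agents, and 4.17% of all probe sets. Whether MOR250 differs from other receptors was not tested. Olfr103 differed by -1.43 with odor and -1.57 with vehicle, and Olfr109 by -1.33 and -1.72.

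Olfr111 lies next to Olfr110 on the chromosome and moved the other way. It read 6.96, 7.95, 8.02 and 8.26 in odor titled GFP+, against 6.44, 6.34, 5.56 and 7.19 in odor titled GFP-. The highest titled GFP- library was above the lowest titled GFP+ library here. With vehicle it read 8.22, 7.99, 7.29 and 9.22 in titled GFP+, against 5.92, 5.65, 6.27 and 5.76 in titled GFP-, with no overlap. The sort difference was 1.41 with odor (SE 0.38, adjusted p = 0.0125) and 2.28 with vehicle (SE 0.38, adjusted p = 0.000247). With the pools numbered 3 and 4 alone, 2 per group, the differences were 1.76 with odor and 2.24 with vehicle, and neither was called (adjusted p = 0.164 and 0.0746 by limma).

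MOR256 was the largest subfamily, with 16 of the 43 members at both ends of the cluster and in its middle, and most of its calls were falls. Falls were also the more frequent call among the other receptors, of which 22.2% were called higher and 43.4% lower with odor, and 22.9% and 41.3% with vehicle. With odor 3 were called higher and 9 lower, and with vehicle 2 were called higher and 7 lower. The lower calls ranged from 7 to 11 over the agents and the 3 other array scalings, and the higher calls from 2 to 3. Among those that fell is Olfr124, known as SR1 or MOR256-3, a receptor of unusually broad odor tuning that is abundant in the septal organ. It read 9.16, 9.47, 9.44 and 9.25 in odor titled GFP+, against 11.70, 12.53, 11.78 and 11.67 in odor titled GFP-. Its vehicle libraries read 9.94, 9.42, 9.85 and 10.07 in titled GFP+, against 11.26, 12.03, 11.53 and 12.03 in titled GFP-. The groups did not overlap, and the sort difference was -2.59 with odor (SE 0.21, adjusted p = 8.91e-08) and -1.89 with vehicle (SE 0.21, adjusted p = 3.85e-06).

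At the first end of the cluster Olfr90, Olfr91, Olfr92 and Olfr93, all MOR256, were called lower in both agents. Olfr90 read 5.14, 6.10, 6.16 and 6.32 in odor titled GFP+, against 8.53, 8.69, 8.53 and 7.58 in odor titled GFP-. Vehicle libraries read 6.07, 6.66, 6.99 and 6.90 in titled GFP+, against 8.07, 9.14, 8.80 and 8.17 in titled GFP-. Its sort difference was -2.40 with odor and -1.89 with vehicle (SE 0.31, adjusted p = 1.63e-05 and 0.000227). Olfr91 read 6.81, 7.00, 7.55 and 6.99 in odor titled GFP+, against 8.74, 9.40, 8.66 and 8.93 in odor titled GFP-, and 6.91, 7.59, 7.53 and 7.22 in vehicle titled GFP+, against 8.75, 9.58, 9.02 and 8.95 in vehicle titled GFP-. These libraries were nearly at 1 level within each sort, and the difference was -1.85 with odor and -1.76 with vehicle. Olfr92 differed by -1.52 with odor and -1.22 with vehicle, and Olfr93 by -1.34 and -0.93. In RefSeq the span of Olfr91 contains Olfr92, so the signals of these overlapping genes may not be separate. At the other end Olfr136 read 9.46, 9.24, 10.04 and 9.82 in odor titled GFP+, against 11.20, 11.27, 10.78 and 10.68 in odor titled GFP-. The vehicle values were 9.16, 9.30, 10.05 and 9.62 in titled GFP+, against 11.31, 11.47, 11.32 and 11.59 in titled GFP-. The difference was -1.34 with odor and -1.89 with vehicle (SE 0.21, adjusted p = 0.000117 and 2.87e-06), and with the odor pools numbered 3 and 4 alone it missed the threshold (-0.80, adjusted p = 0.0520 by limma).

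Olfr134 and Olfr117 were the MOR256 members called higher in both agents. Olfr134 read 8.09, 8.09, 8.33 and 8.03 in odor titled GFP+, against 5.23, 6.10, 5.89 and 5.06 in odor titled GFP-. In filtered air it read 8.52, 8.41, 8.68 and 8.18 in titled GFP+, against 5.38, 5.79, 5.25 and 5.83 in titled GFP-, and 12 of its 16 libraries were above the median negative control. The titled GFP+ libraries were tight, and the difference was 2.56 with odor and 2.88 with vehicle (SE 0.21, adjusted p = 8.35e-08 and 2.02e-08). Olfr117 was above the 95th percentile of the negative controls in all 16 libraries. It read 12.51, 13.28, 12.76 and 12.65 in odor titled GFP+, against 11.99, 12.43, 10.81 and 10.85 in odor titled GFP-. With filtered air it read 13.19, 13.34, 12.87 and 13.56 in titled GFP+, against 11.06, 11.11, 10.69 and 10.505 in titled GFP-. The odor titled GFP- libraries fell into a higher pair and a lower pair, and the difference was 1.28 with odor (SE 0.31, adjusted p = 0.00610) and 2.40 with vehicle (SE 0.31, adjusted p = 1.59e-05). With the odor pools numbered 1 and 2 alone it was 0.68 and was not called (adjusted p = 0.154 by limma). Of the other MOR256 members, Olfr131 was called lower in both agents (-1.29 with odor and -1.69 with vehicle), and Olfr123, Olfr130, Olfr133, Olfr135 and Olfr137 stood near the threshold. With the pool as a block Olfr123 and Olfr135 were also called lower with vehicle (adjusted p = 0.0118 and 0.0294, against 0.0590 and 0.0511 without it by limma) and Olfr130 higher with vehicle (adjusted p = 0.00570, against 0.0721). With odor the block added Olfr130 as higher (adjusted p = 0.0194, against 0.152) and Olfr135 as lower (adjusted p = 0.0463, against 0.0842 by limma).

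Of the 7 MOR263 members, 0 were called in either agent by limma. Among the 1037 other receptors, 307 were called in neither. Over all probe sets 11.03% were called higher and 9.86% lower with odor, and 10.18% and 7.16% with vehicle. The MOR263 sort differences ran from -0.75 to 0.36 with odor and from -0.54 to 0.50 with vehicle. At an unadjusted p below 0.05 only Olfr119 with odor (difference -0.69, adjusted p = 0.0938 by limma) would pass. Of these, Olfr95 with odor was called once the pool was a block (-0.75, adjusted p = 0.0360, against 0.190 by limma without it). The count depends on array scaling, since 6 of 7 were called lower with odor and 1 with vehicle when array medians were centred, 1 with odor after quantile normalization, and 0 when arrays were centred on mature neuron genes. The share of all probe sets called under each scaling is not given here. Olfr95 and Olfr129 were above the 95th percentile of the negative controls in all 16 libraries, and Olfr118, Olfr119 and Olfr120 in none. Olfr95 averaged 11.44 ± 0.80 in odor titled GFP+ and 12.19 ± 0.59 in odor titled GFP-, with 11.87 ± 0.56 in vehicle titled GFP+ against 12.18 ± 0.55 in vehicle titled GFP- (SD, n = 4). Olfr129 averaged 11.95 ± 0.45 and 11.59 ± 0.74 in the odor libraries titled GFP+ and GFP-, and 12.37 ± 0.50 and 11.87 ± 0.45 in the vehicle libraries titled GFP+ and GFP-. Whether MOR263 differs from the other subfamilies was not tested.

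**Figure D3:**
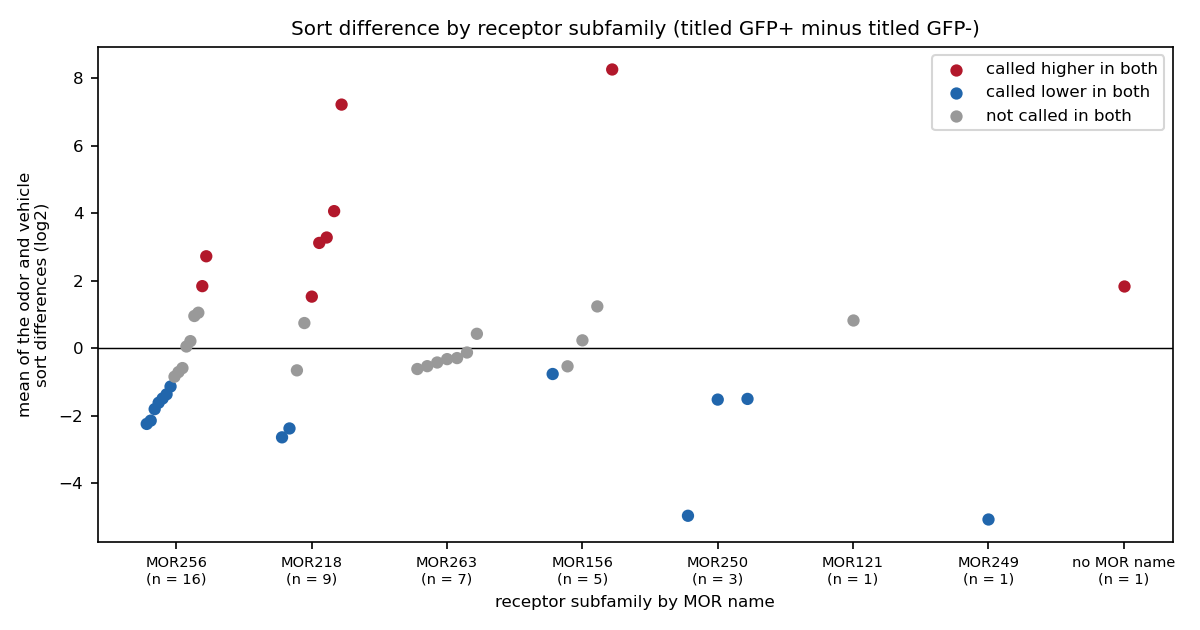
Mean of the odor and vehicle sort differences (titled GFP+ minus titled GFP-, log2) of each receptor, grouped by MOR subfamily with the number of members under each name. Red dots are the 9 receptors called higher in both agents, blue dots the 14 called lower in both and grey dots the rest. The 7 MOR263 dots are all grey, and the 9 MOR218 dots include 5 red and 2 blue.

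Along the chromosome, neighbours often differed in the size of their mean sort difference. Some were close, such as Olfr124 and Olfr125 at -2.24 and -2.38. Of 42 neighbouring pairs of members, 26 had the same sign, and Pearson's r between the mean sort differences of left and right neighbours was 0.04 over these pairs, given as a description since neighbouring pairs share genes. In 14 pairs both members were called in both agents, and 4 of these pairs went opposite ways. Olfr99 and Olfr101, at 8.26 and -4.96, were the farthest apart. Olfr110 and Olfr111 stood at -5.07 and 1.85, Olfr111 and Olfr112 at 1.85 and -2.64, and Olfr125 and Olfr126 at -2.38 and 4.06. Short runs of 1 direction were also present, such as Olfr90 to Olfr93 (all lower), Olfr116 with Olfr117 (both higher) and Olfr126 to Olfr128 (all higher).

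The odor changed no member by a margin that passed the test. By limma, 0 of 43 were called in titled GFP+ libraries (background 0.00901%), 0 in titled GFP- libraries (background 0.0180%) and 0 in the difference of sort differences between odor and vehicle (background 0.00450%). At an unadjusted p below 0.05 there were 3 in titled GFP+ (Olfr90, Olfr92 and Olfr124), 2 in titled GFP- (Olfr117 and Olfr132) and 4 in the interaction (Olfr114, Olfr117, Olfr124 and Olfr132). The smallest adjusted p of any member was 0.968, in titled GFP+. The odor differences ran from -0.73 to 0.23 in titled GFP+ and from -0.44 to 0.81 in titled GFP-, with standard errors between 0.18 and 0.45. The interaction, which is the sort difference with odor minus that with vehicle, ran from -1.16 to 0.55. The member medians were -0.30 in titled GFP+, -0.14 in titled GFP- and -0.21 in the interaction, where all probe sets had -0.01, 0.00 and -0.02 and the other receptors -0.18, -0.09 and -0.09. These medians rested on few libraries. Without the odor titled GFP+ library of replicate 1 they were -0.11 in titled GFP+ and -0.05 in the interaction. Without the odor titled GFP- library of replicate 2 they were -0.26 in titled GFP- and -0.04 in the interaction. Without the vehicle titled GFP- library of replicate 2 the sign turned in titled GFP-, at 0.02, and the interaction median was -0.33. The titled GFP- median was -0.05 without odor titled GFP- replicate 3 and -0.04 without replicate 4, and the interaction median was -0.33 without that replicate 3 and -0.12 without vehicle titled GFP- replicate 3. In pools 3 and 4 alone the medians were -0.13 in titled GFP+, -0.23 in titled GFP- and 0.04 in the interaction, and in pools 1 and 2 alone they were 0.05 in titled GFP- and -0.48 in the interaction.

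Olfr132, a MOR256 member that was called in neither sort comparison, had the largest odor values. It read 11.99, 10.93, 11.71 and 12.77 in odor titled GFP-, against 11.30, 11.01, 10.75 and 11.10 in vehicle titled GFP-. The odor libraries were the more scattered, 1 of them lay below 3 of the vehicle libraries, and the difference was 0.81 (95% interval 0.04 to 1.59, adjusted p = 1.00 by limma). In titled GFP+ it read 10.78, 10.79, 11.86 and 11.85 with odor, against 11.40, 11.01, 12.46 and 11.81 with vehicle, and these overlapped. It was the only member whose sort difference changed sign, at -0.53 with odor and 0.63 with vehicle, neither called, and the interaction was -1.16 (95% interval -2.26 to -0.06, adjusted p = 1.00 by limma). Olfr117, whose values stand above, differed by 0.68 between odor and vehicle in titled GFP- (95% interval 0.03 to 1.33) and by -1.12 in the interaction (95% interval -2.04 to -0.20). The third in size in both was Olfr111, with 0.48 in titled GFP- and -0.86 in the interaction, both with intervals that include 0.

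In titled GFP+ the 3 largest odor differences were all negative. Olfr90, whose values stand above, differed by -0.73 (95% interval -1.38 to -0.07, adjusted p = 0.968 by limma), and its odor and vehicle libraries overlapped. Olfr92 read 4.80, 5.98, 6.29 and 5.53 in odor titled GFP+, against 6.01, 6.24, 6.63 and 6.21 in vehicle titled GFP+, and differed by -0.62 (95% interval -1.23 to -0.02). These signals lie close to the negative controls. Olfr121, of MOR263, read 9.24, 9.71, 8.92 and 9.15 in odor titled GFP+, against 9.44, 10.28, 9.83 and 9.92 in vehicle titled GFP+, and differed by -0.61 (95% interval -1.23 to 0.01). For each of these 6 members (Olfr90, Olfr92, Olfr111, Olfr117, Olfr121 and Olfr132) the interval reached past 1 log2 unit, so the values do not show that the odor had no effect on them.

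**Figure D4:**
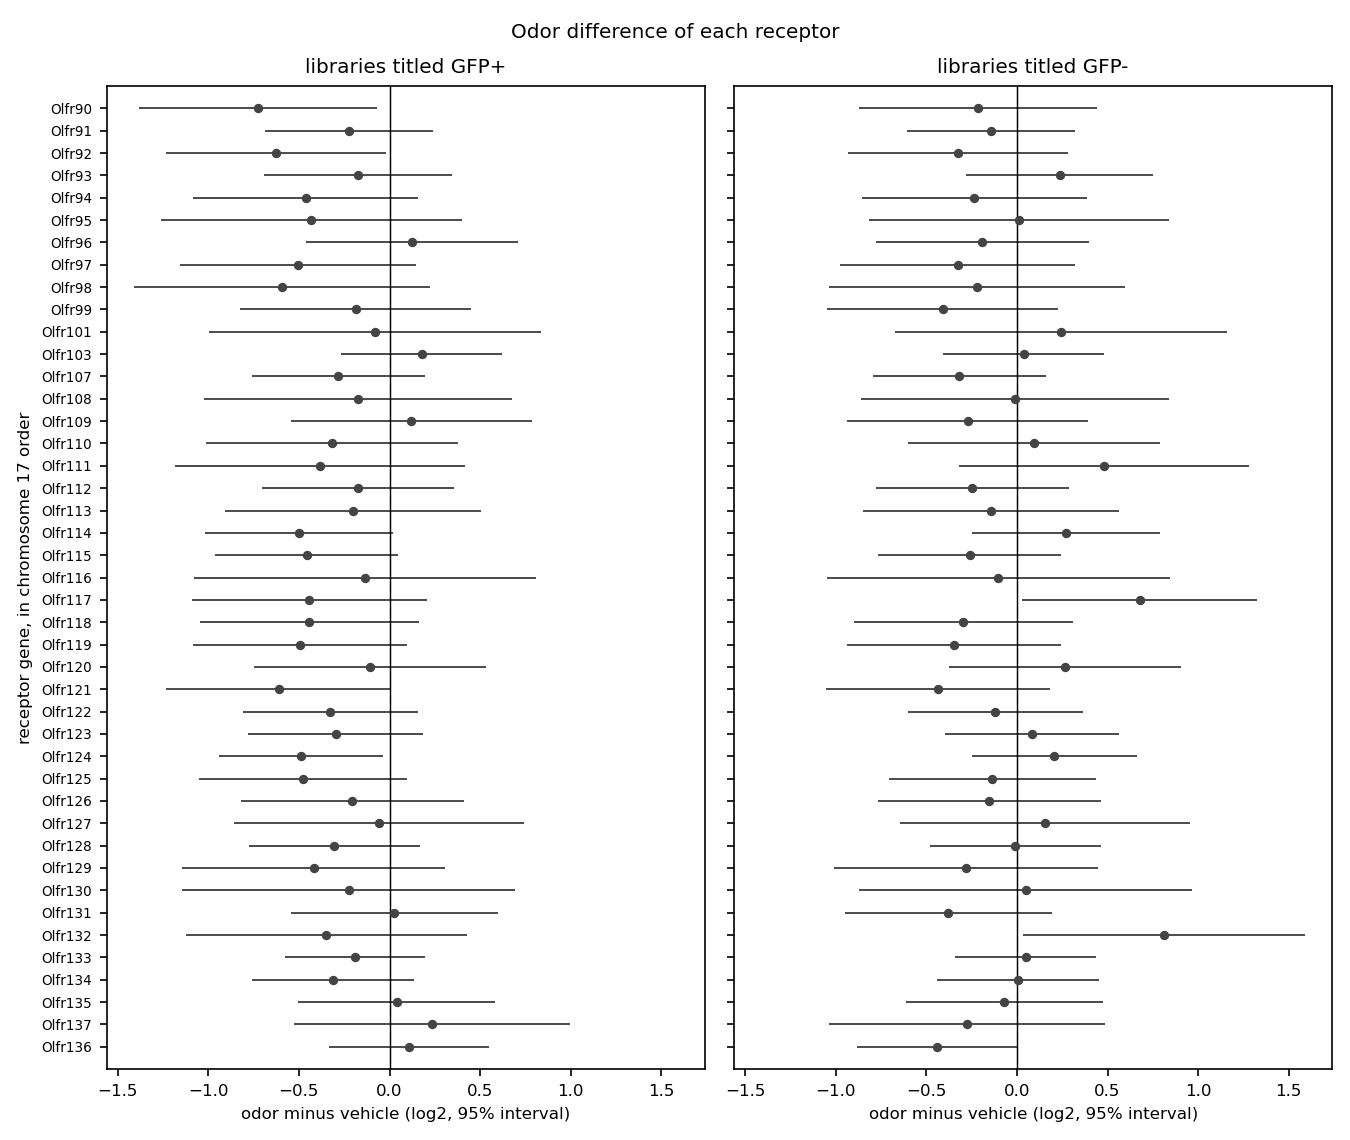
Odor minus vehicle difference (log2) of each of the 43 receptors with its 95% interval by limma, in libraries titled GFP+ (left) and titled GFP- (right), in chromosome 17 order from top to bottom. Most intervals include 0, no difference passed the adjusted test, and Olfr132 and Olfr117 have the largest positive values in titled GFP-.

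Signal strength set which members could be read. Of the 43, 34 were above the median negative control in all 16 libraries, and 0 were below it in all. Against the stricter 95th percentile of the negative controls, which ran from 9.39 to 10.09, 9 members were above in all libraries (Olfr95, Olfr96, Olfr97, Olfr115, Olfr117, Olfr129, Olfr130, Olfr131 and Olfr132) and 16 in none. Those 16 include Olfr90, Olfr92, Olfr93, Olfr103, Olfr111, Olfr127, Olfr128 and Olfr134, which were called in both agents. The SD within a group ran from 0.07 to 1.12 over the members, with a median of 0.41. Levels of different receptors were not ranked, since each probe set has its own response.

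Few other genes lie between the first and the last member, and those measured were mixed. H2-M3, a class I molecule that presents formylated peptides, was called higher in titled GFP+ with odor (adjusted p = 2.67e-05) and with vehicle (adjusted p = 8.86e-05). Its signal was 4.81 to 5.71 in odor titled GFP+ against 3.79 to 4.06 in odor titled GFP-, and 4.86 to 5.68 in vehicle titled GFP+ against 3.80 to 4.04 in vehicle titled GFP-. The titled GFP- values lie below the negative control medians, so the size of the difference was not measured. The titled GFP+ values lie around those medians, which ran from 5.15 to 5.56 with odor and from 5.17 to 5.43 with vehicle. H2-M3 was thus not clearly above background in either sort. Ubd, which encodes a ubiquitin-like modifier, averaged 3.59 in odor titled GFP+ against 3.48 in odor titled GFP-, below the negative control medians, and was not called. The receptors Olfr138 and Olfr761 lie there too, outside the numbers 90 to 137. Olfr138 differed by -2.13 with odor and -2.64 with vehicle, and was called in each. Olfr761 was called higher in each, with means of 5.76 in odor titled GFP+ against 4.64 in odor titled GFP-, and 5.98 in vehicle titled GFP+ against 4.78 in vehicle titled GFP-, where the titled GFP- means lie below the negative control medians. The classical MHC gene H2-K1 was called higher in titled GFP+, by 3.89 with odor and 4.14 with vehicle. B2m, which encodes the class I light chain and lies outside the MHC, was called higher by 4.48 and 4.55. H2-D1, also called higher in each, averaged 8.86 in odor titled GFP+ against 5.13 in odor titled GFP-, and 8.65 in vehicle titled GFP+ against 4.81 in vehicle titled GFP-, with the titled GFP- means below the negative control medians. A list of 27 measured genes held genes of the MHC region and B2m. Of these, 4 were called higher in each agent, and 2 with odor and 1 with vehicle were called lower. Those called lower are not named here. Over all probe sets 11.03% were called higher and 9.86% lower with odor, and 10.18% and 7.16% with vehicle. The median sort difference of the list was -0.21 with odor and -0.16 with vehicle. Most of the list was not measured above background: 15 of its genes in odor titled GFP+, 17 in odor titled GFP-, 16 in vehicle titled GFP+, and 18 for titled GFP- with vehicle, exceeded the median negative control in no library of the group.

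Cell type markers moved with the same sorts. Of 16 macrophage and neutrophil markers, 16 were called higher in titled GFP+ in each agent. The log2 of their summed signal was 18.72 to 19.89 in odor titled GFP+ against 10.28 to 11.86 in odor titled GFP-, and 18.84 to 19.30 in vehicle titled GFP+ against 9.96 to 11.37 in vehicle titled GFP-. The sustentacular and microvillar list had 12 of 12 called higher in each agent, with sums of 15.61 to 17.31 in odor titled GFP+ against 13.67 to 14.45 in odor titled GFP-, and 15.44 to 16.48 in vehicle titled GFP+ against 13.28 to 13.88 in vehicle titled GFP-. Of 9 lymphocyte markers, 7 were called higher with odor and 8 with vehicle, and in titled GFP- libraries 9 of 9 were at or below the median negative control in every library. Of 14 immature neuron markers, 8 were called higher with odor and 9 with vehicle. The log2 of their summed signal overlapped between the sorts with odor, at 17.34 to 17.80 in titled GFP+ against 17.41 to 17.49 in titled GFP-. With vehicle it was 17.60 to 17.83 in titled GFP+ against 17.42 to 17.56 in titled GFP-. Of 16 mature olfactory neuron markers, 2 were called in each agent, both lower, with sums of 20.99 to 21.32 in odor titled GFP+ against 21.36 to 21.48 in odor titled GFP-, and 21.15 to 21.32 in vehicle titled GFP+ against 21.39 to 21.49 in vehicle titled GFP-. Omp, the marker protein of mature olfactory neurons, differed by -0.21 with odor and -0.17 with vehicle, neither called. Of 9 activity-dependent neuron genes, 6 were called lower in titled GFP+ with odor and 5 with vehicle. The part of these cell types in the receptor differences was not tested. Of 17 genes for receptor choice and trafficking and 9 for the dorsal and ventral zones, 1 in each list was called in each agent, and it was higher.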

How the data were processed

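RNA of 16 samples (50 to 100 ng of total RNA each, per the labels) was measured on Clariom S mouse arrays. What the authors deposited is a log2 signal for each probe set on each array. The submitters' processing notes name Affymetrix Expression Console without a version, and no source used here gives its background correction or normalization. Of 28846 probe sets, 6640 controls (5222 negative) were left out, which left 22206.

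Groups came from the titles. limma 3.58.1 in R 4.3.3 was fitted to 4 group means over all 16 arrays, with eBayes without trend (12 residual and 4.49 prior degrees of freedom) and Benjamini-Hochberg adjustment over all probe sets, for 5 comparisons. limma's calls were tested on simulated data for the sort difference in vehicle over 22206 probe sets, where 149 of 200 genes changed by 1 log2 unit and 195 of 200 changed by 2 were recovered. The number of arrays limits the precision. Each pool gave both sorts from the same mice, so the pool was used as a block in an alternative fit. The deviations of the paired libraries correlated at 0.158 to 0.399. Those of odor and vehicle pools of the same number and sort, which share no mice, correlated at 0.0729 to 0.406. Alternatives were 3 array scalings, the block, a trended robust prior, a filter on dim probe sets, each library left out and pools split by number.

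The members and lists were chosen with earlier results of these data known. Named by rule were the 8 highest and 8 lowest members called in both sort comparisons, and the 3 with the largest odor difference where none was called. Members on either side of a threshold and neighbours with alike windows were added after their values were seen. Subfamilies are from MOR names among RefSeq synonyms. Promoter windows are from RefSeq (GRCm38.p6).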

Additional observations from a re-analysis of the deposited data

Results flagged for a closer look

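Among 76 groups of 4 libraries of the named members, 3 had a library set apart from the other 3 by more than Dixon's 95% critical value of 0.829, and chance flags about 1 in 20 groups, a share of 0.05. All 3 are odor libraries titled GFP-. Olfr127 was 4.05 in replicate 4, where the others ran from 5.76 to 6.07. Olfr90 was 7.58 in the same replicate, where the others ran from 8.53 to 8.69. Olfr124 was 12.53 in replicate 2, where the others ran from 11.67 to 11.78. With each of the 16 libraries left out in turn, the sort difference of Olfr127 with odor stayed between 2.71 and 3.39, that of Olfr90 between -2.65 and -2.14 and that of Olfr124 between -2.68 and -2.39.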

How the results depend on the processing

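With odor, 16 members were called lower, and this count was 26 with array medians centred and 8 with pools numbered 3 and 4 alone. Shares of all probe sets are not set beside the member or subfamily counts under other settings. The count of members above background in all libraries was 34 against the median negative control and 9 against the 95th percentile. Leaving out each library in turn gave, with odor, 9 to 13 members called higher and 15 to 17 lower, and with vehicle 9 to 12 higher and 13 to 15 lower, while the interaction and both odor comparisons ranged from 0 to 0. Of the differences of named members, 324 kept direction and side of the threshold under the other settings, and 0 reversed. The 4 that lost the call were Olfr111 in both agents and Olfr117 and Olfr136 with odor, each with 2 pools per group. With single libraries left out, all 656 kept direction and side of the threshold. These members were named for the size of the same differences, so the tally says little about members near the threshold. With the pool as a block, 14 members were called higher and 18 lower with odor, and 12 and 16 with vehicle; it added the calls named above and lost none. By the labels, the odor and vehicle pools of a number share only that number. Their deviations correlated at 0.0729 to 0.406, a range that overlaps the 0.158 to 0.399 of the 2 sorts of a pool. The number as a block called 0 members in both odor comparisons. The cause of these correlations, and of the shifts between settings, was not tested. Protein identity between members was not run. Signals near the negative controls limit the folds of dim members.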
